A study of Mus musculus with 12 samples.

Results

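The dynein chain genes were followed in the testis of juvenile mice while the first germ cells matured. They are the 37 protein-coding genes whose symbol begins with Dnahc, Dnaic, Dnalc, Dnali, Dync or Dynl, out of 22380 protein-coding genes and 37675 genes listed. The rule uses the symbol alone. They fall into 15 axonemal heavy chains, 5 axonemal intermediate and light chains, 7 cytoplasmic chains (Dync) and 10 light chains of the Dynl type, most of which are shared between axonemal and cytoplasmic dyneins. Of the 37 genes, 35 had at least 1 count and 34 had enough counts to be tested. Dynlt1c and Dynlt1e were listed at 0 in every mouse, and Dynlt1f had 1 count in all.

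All mice were C57BL/6NHsd males of an inbred laboratory strain, with no treatment or mutation named, and 5 ages were sampled with 2 mice each, on postnatal days (PND) 7, 14, 17, 21 and 28. The whole testis was extracted, so germ cells and somatic cells were measured together. The most advanced germ cells are spermatogonia at PND 7. Early spermatocytes have appeared by PND 14 and late ones by PND 17. Round spermatids are present by PND 21, and by PND 28 they have begun to elongate. In such bulk samples, fewer cells of a type and less RNA per cell cannot be told apart.

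Dyneins are motors that walk along microtubules toward the minus end. Axonemal dyneins form the outer and inner arms of the sperm tail and of motile cilia, and their heavy chains carry the motor domain. Most of the outer arm is built from a beta-type heavy chain (Dnahc9, Dnahc11 or Dnahc17) and a gamma-type heavy chain (Dnahc5 or Dnahc8), the inner arm from the dimeric dynein of Dnahc2 and Dnahc10 and from monomeric dyneins such as Dnahc1, Dnahc3, Dnahc6, Dnahc7 and Dnahc12. Cytoplasmic dynein 1 (heavy chain Dync1h1) moves vesicles, nuclei and chromosomes in nearly every cell, and cytoplasmic dynein 2 (heavy chain Dync2h1) carries cargo back from the tip of a growing cilium or flagellum.

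Each mouse had from 3994026 to 13559548 counts (median 7103531). Of 8 spermatocyte markers 8 were higher in PND 7/14 (13.5% of all genes) and of 8 spermatid markers 8 were higher in PND 21/28 (7.37%). However, 7 of the 8 spermatid markers were also higher in PND 7/14. In PND 7/28, 6 of 7 tested Sertoli, 5 of 7 spermatogonial and 3 of 5 peritubular myoid markers were lower (23.4% of all genes). Among 7 Leydig markers 4 were higher in PND 21/28, and in PND 7/28 3 were higher and 1 was lower (32.2% and 23.4% of all genes). In 3 respects libraries stood apart from their age. The summed RPKM (reads scaled by exon length and by mapped reads) of 8 spermatid markers was 483 in PND 14 mouse 1, beside 22.6 in PND 14 mouse 2 and 23.3 and 22.9 at PND 17. In PND 21 mouse 1, transcripts with long exon models stood higher than in PND 21 mouse 2, and the mice of PND 14, PND 17 and PND 28 also differed by length. Epididymal markers summed to 190 RPKM in PND 7 mouse 2 and to 428 in PND 17 mouse 1, and to between 0.53 and 9.74 in the other mice. Of 6 markers of multiciliated epithelium, Sntn was at 0 in every mouse and Cdhr3, Ccno and Mcidas (listed as Gm6320) stayed at or below 0.09, 1.21 and 0.11 RPKM. Cdhr4 and Ccdc67 brought the sum of the list to 101.1 and 97.1 at PND 28.

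Promoters are shown for 4 chains that rose with age and whose window held a searched motif, chosen after their values were seen. They are Dnahc8, the most abundant axonemal heavy chain from PND 14 on, Dnahc10, Dnaic2 and Dynlrb2. RefSeq promoters of build GRCm38.p6 were matched for 30 of the 37 genes, and each line gives the 250 bases before the start site, 5′ to 3′ on the plus strand. Capitals mark GTTGCC, found in the X-box bound by RFX factors, and CAGTTG, a core bound by MYB factors, on either strand. The regions are chr17:30626686-30626935, chr5:124724835-124725084, chr11:114727169-114727418 and chr8:116504765-116505014.
Dnahc8: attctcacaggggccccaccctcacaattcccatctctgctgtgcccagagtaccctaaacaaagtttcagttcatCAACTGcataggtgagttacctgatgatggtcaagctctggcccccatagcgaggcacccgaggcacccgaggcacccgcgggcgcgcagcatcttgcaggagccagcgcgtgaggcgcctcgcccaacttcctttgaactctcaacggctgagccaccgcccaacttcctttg
Dnahc10: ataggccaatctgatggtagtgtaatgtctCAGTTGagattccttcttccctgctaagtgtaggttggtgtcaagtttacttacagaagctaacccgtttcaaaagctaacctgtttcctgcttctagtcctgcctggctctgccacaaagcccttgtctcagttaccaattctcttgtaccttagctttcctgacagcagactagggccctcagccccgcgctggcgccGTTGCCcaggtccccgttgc
Dnaic2: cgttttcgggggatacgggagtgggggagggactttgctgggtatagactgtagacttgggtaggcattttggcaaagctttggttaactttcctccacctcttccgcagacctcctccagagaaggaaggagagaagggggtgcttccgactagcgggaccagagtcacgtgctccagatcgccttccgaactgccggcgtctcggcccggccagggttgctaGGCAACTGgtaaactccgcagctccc
Dynlrb2: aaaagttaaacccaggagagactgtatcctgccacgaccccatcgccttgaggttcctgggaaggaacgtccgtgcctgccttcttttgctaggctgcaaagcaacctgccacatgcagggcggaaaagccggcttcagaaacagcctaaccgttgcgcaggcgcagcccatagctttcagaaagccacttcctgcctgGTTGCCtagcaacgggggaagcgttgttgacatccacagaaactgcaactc

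GTTGCC lay in the 300 base window (250 before to 50 after the start site) of 10 of the 30 matched genes, or 33.3%, beside 14.1% of all 27025 genes in the table (12.5% of its 32851 promoters). CAGTTG also lay in 10 of the 30 genes, beside 15.4% of all genes (13.7% of promoters), and 7 of these were among the 14 matched axonemal heavy chains. GTTGCC was found in 4 of the 14 axonemal heavy chains and in 3 of the 5 matched cytoplasmic chains, so that it was not limited to axonemal genes. The 4 heavy chains were Dnahc10 and the copies Dnahc7a, Dnahc7b and Dnahc7c, each counted as a gene. In Dnahc7a and Dnahc7b CAGTTG began at -202 and -165 and overlapped GTTGCC at -200 and -163, so the 2 motifs were not found independently there. In Dnaic2 and in the cytoplasmic chain Dync2h1, both motifs likewise overlapped, on the minus strand. Relative to the start site, their first bases lay at -26 and -24 in Dnaic2 and at 36 and 38 in Dync2h1. In Dynlrb2 GTTGCC began at -51. TGACGTCA, the cAMP response element, lay in Dnahc6 alone among the members, beside 2.03% of all genes (1.79% of promoters). These matches describe letters in a window, not binding sites.

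From PND 7 to PND 28 the axonemal heavy chains went from a small part of all dynein heavy chain RNA to the larger part. Their RPKM values summed to 6.38 and 5.89 at PND 7, and by PND 28 the sums had reached 219 and 301. For the cytoplasmic heavy chains Dync1h1 and Dync2h1 the sum was 40.6 and 41.8 in the younger and 48.3 and 73.7 in the older of these mice. The ratio of the axonemal to the cytoplasmic sum within a mouse was 0.157 and 0.141 at PND 7, 1.41 and 1.66 at PND 14, 2.30 and 1.70 at PND 17, 3.65 and 3.6 at PND 21 and 4.53 and 4.09 at PND 28. The PND 14 and PND 17 mice did not overlap with those of PND 7 or of PND 21, and the ratio was nearly equal in the PND 21 mice, whose sums themselves differed (476 and 219 RPKM for the axonemal chains). An exact permutation test of 2 mice against 2 cannot give a two-sided p below 0.333, so no test is given for such ratios.

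**Figure D1:**
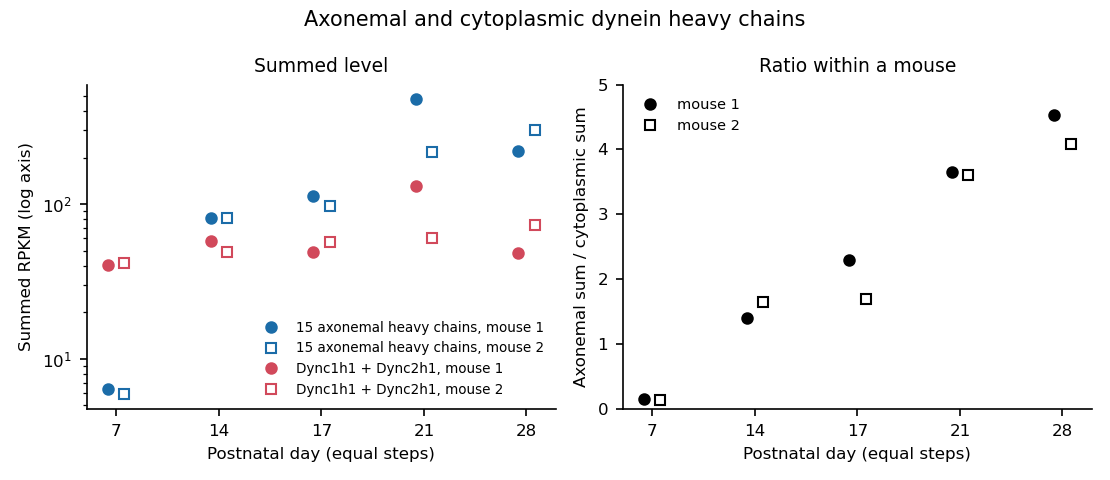
The left panel plots the summed RPKM (log axis) of the 15 axonemal heavy chains and of Dync1h1 plus Dync2h1 for each mouse against age, and the right panel their ratio within a mouse. Filled circles are mouse 1 and open squares mouse 2, and the ratio stands at 0.157 and 0.141 at PND 7 and at 4.53 and 4.09 at PND 28.

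Counts were tested with edgeR, and a gene was called differentially expressed (DE) at an adjusted p under 0.05 and a change of at least 2-fold. Between PND 7 and PND 28, 25 of the 34 tested members were higher and 1 was lower, beside 32.2% higher and 23.4% lower among all 16860 genes tested (55.6% called). Of the axonemal heavy chains 14 of 15 were higher, of the axonemal intermediate and light chains 4 of 5, of the cytoplasmic chains 3 of 7 and of the 7 tested shared light chains 4. The median log2 fold change was 5.96 for the axonemal heavy chains, 5.61 for the other axonemal chains, 0.94 for the cytoplasmic chains and 1.45 for the shared light chains, and 0.10 for all genes tested. With the 3 heavy chains that had 0 counts at PND 7 set at their lower bound (a floor of 3 counts over both mice), the heavy chain median was 5.43. Over all ages together, 31 of the 34 members changed at an adjusted p under 0.05, beside 57.5% of all genes, and the exceptions were Dnahc11, Dync1h1 and Dync1i1.

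**Figure D2:**
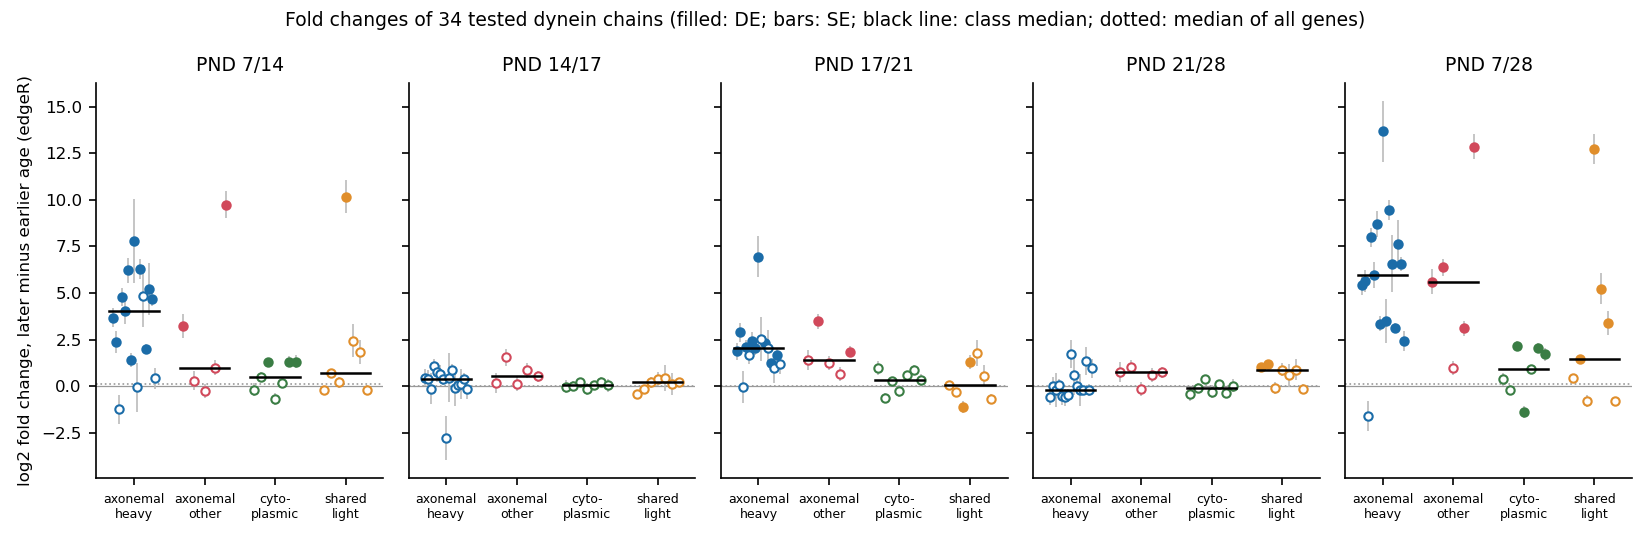
Each point is the log2 fold change (later minus earlier age, edgeR) of 1 of the 34 tested dynein chains, with bars for the SE, filled where the gene was DE, and a black line at the median of its class. The axonemal heavy chains have medians of 4.05 for PND 7/14 and 2.05 for PND 17/21 but 0.40 for PND 14/17 and -0.18 for PND 21/28, and the dotted line is the median of all genes.

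The first step up came between spermatogonia and early spermatocytes. In PND 7/14, 17 members were higher and none lower, beside 13.5% higher and 5.43% lower among all genes (18.9% called). These were 11 of the 15 axonemal heavy chains (Dnahc1, Dnahc2, Dnahc3, Dnahc6, Dnahc7b, Dnahc7c, Dnahc8, Dnahc10, Dnahc12, Dnahc14 and Dnahc17), with Dnaic1, Dnali1, Dync1i2, Dync2h1, Dync2li1 and Dynlrb2. The heavy chain median was 4.05, or 2.36 with the chains at 0 counts set at their bound, against 0.50 for the cytoplasmic chains. In 10 fits that each left out 1 mouse, 10 of the 17 calls were kept throughout. The calls of Dnahc2, Dnahc3, Dnahc7c, Dnahc10, Dync1i2, Dync2h1 and Dync2li1 were lost in at least 1 of them. Where these calls were lost, the log2 fold changes ran from 0.86 (Dync2li1) to 7.79 (Dnahc3).

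Between PND 14 and PND 17 no member and no gene at all (0%) was called by edgeR. At an unadjusted p under 0.05, 4 members and 769 of all genes passed, and DESeq2 called 1 gene of 16860 and no member. Without PND 14 mouse 2 edgeR called 175 genes and 1 member (Dnahc3, lower), and without a filter on low counts 357 genes and 3 members (Dnahc3, Dnahc12 and Dnaic2). The median of the axonemal heavy chains was 0.40 and that of the cytoplasmic chains 0.05.

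The second step came with round spermatids. In PND 17/21, 12 members were higher and 1 was lower, beside 9.29% higher and 1.05% lower among all genes (10.3% called). The 12 were 9 axonemal heavy chains (Dnahc1, Dnahc2, Dnahc3, Dnahc6, Dnahc7b, Dnahc8, Dnahc10, Dnahc12 and Dnahc17), Dnaic2, Dnali1 and Dynlrb2, and Dynlrb1 was lower. The heavy chain median was 2.05 and the cytoplasmic median 0.32. This comparison depended on 3 of its 4 mice. Without PND 17 mouse 2 only Dnaic2 was called among the members and 266 genes in all (1.48%), without PND 17 mouse 1 6 members and 576 genes (3.21%), and without PND 21 mouse 1 6 members and 492 genes (2.74%). Without PND 21 mouse 2 16 members and 1860 genes (10.3%) were called, with Dynlrb2 lost and Dnahc14, Dnalc1, Dync1h1 and Dync2h1 added. The heavy chain median stayed between 1.27, without PND 21 mouse 1, and 2.31, without PND 21 mouse 2.

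The mice of PND 21 differed, and the difference varied with transcript length. Among members with at least 200 counts, the ratio of mouse 1 to mouse 2 in CPM (counts scaled by the TMM-adjusted library size) ran from 1.14 to 2.80, with a median of 2.09, for the 12 with an exon model of at least 10000 bases. For the 18 shorter ones it ran from 0.53 to 2.24, with a median of 0.915. Over all protein-coding genes with that count the median ratio was 1.27 for 666 genes of at least 10000 bases and 0.826 for 568 genes under 1000 bases. Mice of other ages differed by length too. For these length classes the median ratio was 1.27 and 0.898 at PND 14, 0.862 and 1.09 at PND 17 and 0.866 and 1.11 at PND 28. At PND 7 it was 0.994 and 1. At PND 21 the long members thus had a higher median ratio (2.09) than long genes in general (1.27). Among members with 2000 to 4000 bases, Dnahc14 was at 2.24 and Dnalc4 at 0.783, beside a median of 0.909 for all such genes. The part of length in the ratios of the members was not tested. With the length trend of each library removed, an alternative added after the values were seen, the 13 members called in PND 17/21 were all called and Dnahc14 and Dnalc1 joined them.

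**Figure D3:**
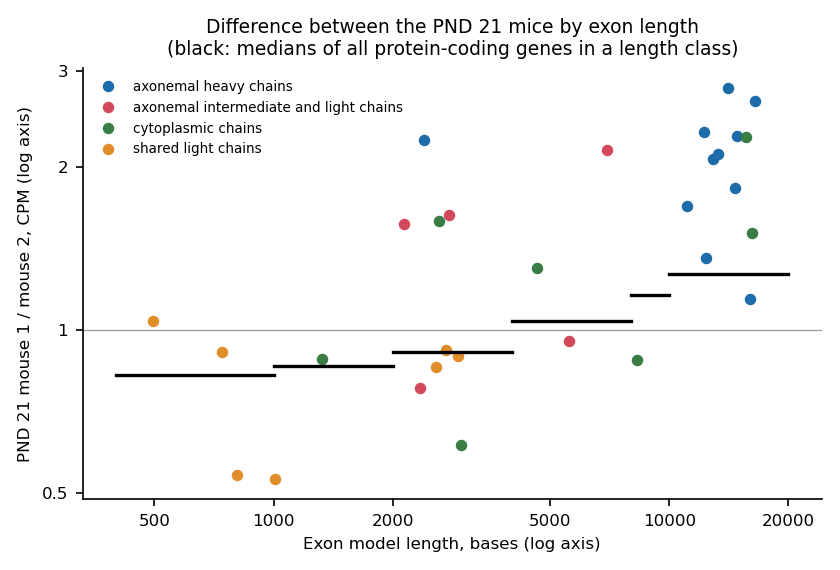
Each point is 1 of the 30 dynein chains with at least 200 counts, with its exon model length in bases on the x axis and the ratio of PND 21 mouse 1 to mouse 2 in CPM on the y axis (both log axes). Black lines are the medians of all protein-coding genes in a length class, from 0.826 under 1000 bases to 1.27 from 10000 bases, and the long members stand between 1.14 and 2.80.

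Between PND 21 and PND 28 few members were called. Of the 34 tested, Dynll1 and Dynll2 were higher and none was lower, beside 7.37% higher and 0.297% lower among all genes (7.66% called), so that the members' share was not above that of all genes. No axonemal chain was called, and the median was -0.18 for the heavy chains and 0.74 for the intermediate and light chains. Values at PND 28 lay above those at PND 21 without overlap for Dnahc3 (3.31-fold), Dnahc7c (2.53-fold), Dnaic2 (2.06-fold), Dnahc9 (1.94-fold) and Dynlrb2 (1.84-fold). The same held for Dnaic1 (1.70-fold), Dnali1 (1.67-fold), Dnalc4 (1.52-fold), Dynlt1a (1.49-fold) and Dync1i2 (1.29-fold). None of these passed the test, and how many of all genes lay apart in this way was not counted. With 2 mice against 2, full separation alone gives an exact two-sided permutation p of 0.333. These values are therefore not read as a rise. Dnahc3 was called when only the 4 mice of the comparison were fitted and when no filter on low counts was used, and Dnaic2 in the latter. The calls of Dynll1 and Dynll2 were absent when counts were scaled by library totals. They were also absent without PND 21 mouse 1, where the log2 fold changes were 0.95 for Dynll1 and 1.14 for Dynll2. The call of Dynll1 was also lost without any other mouse of either age (0.93 to 1.09).

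The outer arm gamma-type chain of the testis was Dnahc8, on chr17:30761299-31012209 of mm9. Its level was 1.57 and 1.91 RPKM at PND 7, 44.7 and 49.99 at PND 14, 64.3 and 53.8 at PND 17, 240 and 116 at PND 21 and 109 and 149 at PND 28. The mice of PND 7 lay far below all others and those of PND 21 and PND 28 overlapped. Dnahc8 alone made up 24.5% and 32.3% of the summed axonemal heavy chain RPKM at PND 7 and between 49.6% and 61.8% in every later mouse. It rose 25.7-fold in PND 7/14 (log2 4.68 ± 0.36 SE, adjusted p = 1.74e-05) and 3.21-fold in PND 17/21 (1.68 ± 0.32, adjusted p = 0.00878). The second call was lost without PND 17 mouse 1 (adjusted p = 0.0515) and without PND 17 mouse 2 (adjusted p = 0.0978). From PND 14 on, 88 to 92 of its 94 exons had more than 10 reads, so the counts were spread along the gene.

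Dnahc5, the gamma-type chain known from airway cilia, never passed 0.34 RPKM in any mouse. It had 105 counts over all 10 mice, against 75376 for Dnahc8, and none of its 79 exons had more than 10 reads in a mouse. Its log2 fold change in PND 7/28 was 3.49 ± 1.2 (adjusted p = 0.0254), a call that was lost without PND 7 mouse 2 (adjusted p = 0.0656) and without either PND 28 mouse (0.13 and 0.0585).

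Among the beta-type chains Dnahc17, on chr11:117883037-117990533 of mm9, showed the same division. Dnahc17 was at 0.065 and 0.010 RPKM at PND 7, 4.07 and 3.02 at PND 14, 5.96 and 4.62 at PND 17, 40.6 and 13.5 at PND 21 and 11.3 and 18.3 at PND 28. It rose 74.0-fold in PND 7/14 (log2 6.21 ± 0.67, adjusted p = 0.000106) and 5.38-fold in PND 17/21 (2.43 ± 0.48, adjusted p = 0.0105). The size of the first rise hung on the few counts of PND 7, at log2 8.42 without PND 7 mouse 1 and 5.52 without PND 7 mouse 2. The second call was lost without PND 21 mouse 1 (log2 1.57, adjusted p = 0.0817) and without either PND 17 mouse. Its counterparts Dnahc9 and Dnahc11 stayed at or below 0.49 and 0.31 RPKM. Dnahc9 was higher at PND 28 than at PND 7 (log2 2.42 ± 0.54, adjusted p = 0.00266). Dnahc11 gave -1.61 ± 0.82 (adjusted p = 0.111), and 4.6% of its exon bases lie opposite exons of Cdca7l, from which it cannot be told apart if strand was not used in counting.

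**Figure D4:**
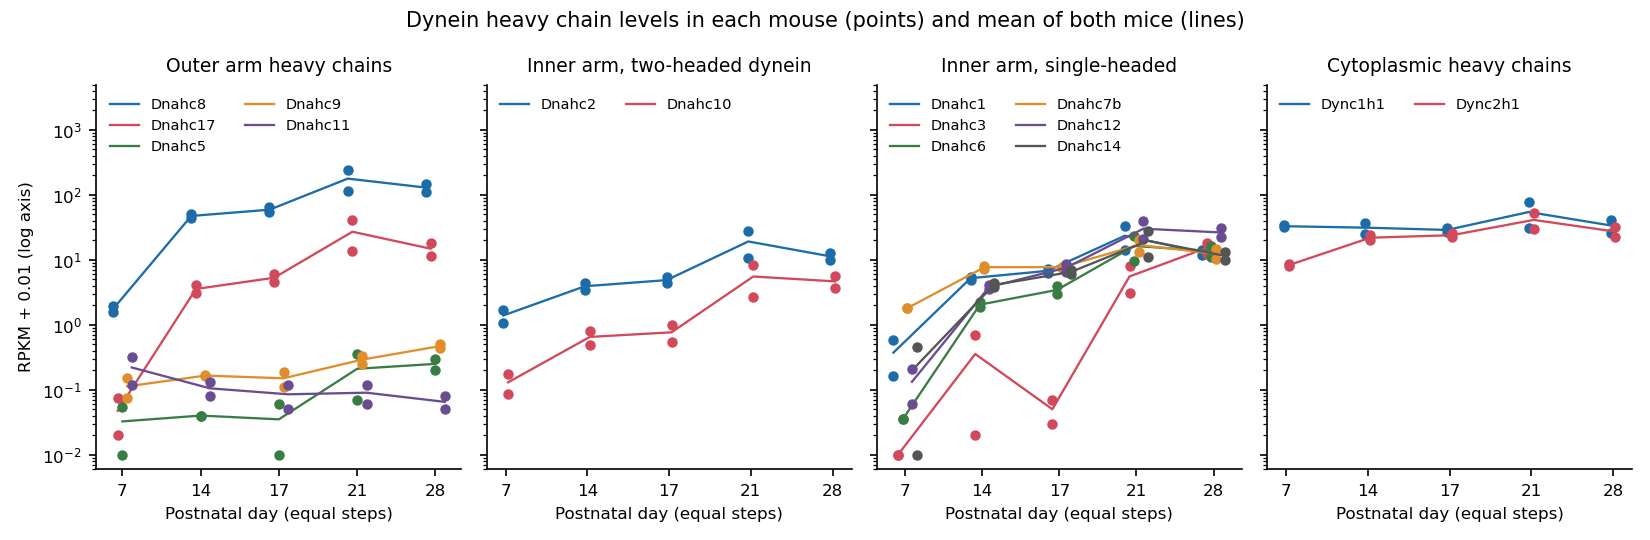
RPKM + 0.01 of heavy chains (log axis) against age, with a point for each mouse and a line through the mean of both, in panels for the outer arm, the dimeric and the monomeric inner arm and the cytoplasmic heavy chains. Dnahc8 and Dnahc17 lie above Dnahc5, Dnahc9 and Dnahc11 at every age from PND 14, Dnahc3 stays at or below 0.68 RPKM until PND 17, and Dync1h1 lies between 25.0 and 41.4 RPKM except in PND 21 mouse 1 (78.4).

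From PND 14 on, the inner arm chains lay below Dnahc8. The partners of the dimeric inner arm dynein differed in level, with Dnahc2 at 1.06 and 1.70 RPKM at PND 7 and 9.87 and 12.8 at PND 28, and Dnahc10 at 0.165 and 0.075 at PND 7 and 3.65 and 5.64 at PND 28. Dnahc10 rose 5.13-fold in PND 7/14 and 7.4-fold in PND 17/21, and Dnahc2 2.63-fold and 4.16-fold. For Dnahc10 the first call was lost without PND 7 mouse 2 (log2 1.97, adjusted p = 0.11) or PND 14 mouse 1 (1.98, adjusted p = 0.0831). For Dnahc2 it was lost without PND 7 mouse 1 or either PND 14 mouse (1.14 to 1.48), and in PND 17/21 both genes lost their calls without PND 17 mouse 2. Dnahc10 lost that call also without PND 21 mouse 1 (1.98, adjusted p = 0.057).

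Dnahc12, a monomeric chain, had the highest mean level after Dnahc8 among the axonemal heavy chains at PND 21 and PND 28. It had 0.195 and 0.050 RPKM at PND 7, 3.50 and 4.10 at PND 14, 8.54 and 6.57 at PND 17, 39.6 and 20.7 at PND 21 and 22.3 and 30.4 at PND 28. The rise was 27.4-fold in PND 7/14 (log2 4.78 ± 0.47, adjusted p = 6.32e-05, or 6.09 when PND 7 mouse 1 and 4.21 when PND 7 mouse 2 was left out) and 4.24-fold in PND 17/21 (2.09 ± 0.37, adjusted p = 0.00662), the latter lost without PND 17 mouse 2 (adjusted p = 0.0899) or PND 21 mouse 1 (adjusted p = 0.0518). Dnahc1, Dnahc6, Dnahc7b and Dnahc14 lay between 9.59 and 33.0 RPKM at PND 21 and between 9.93 and 16.1 RPKM at PND 28. Of these Dnahc6 rose the most over the whole span (log2 9.45 ± 0.54) and Dnahc7b the least (3.12 ± 0.25). The exon model of Dnahc14 has only 2393 bases and 17 exons, against 12359 to 13247 bases for Dnahc1, Dnahc6 and Dnahc7b. Its RPKM is therefore less comparable with theirs.

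Dnahc3, a monomeric inner arm chain, was the late exception. No count was found at PND 7, and its counts were 64 and 1 at PND 14, 9 and 1 at PND 17, 390 and 229 at PND 21 and 1329 and 1117 at PND 28. Its level was 0.68 and 0.01 RPKM at PND 14, 0.06 and 0.02 at PND 17, 8.04 and 3.04 at PND 21 and 12.5 and 18.0 at PND 28. PND 14 mouse 1 is thus the only mouse before PND 21 with more than 9 counts, and it is also the mouse with 483 RPKM of spermatid markers. The part of those markers in the Dnahc3 value was not tested. The PND 7/14 call (adjusted p = 0.0337) was lost without PND 14 mouse 1 (log2 3.09, adjusted p = 0.446) and without either PND 7 mouse. The rise in PND 17/21 was 122-fold (log2 6.93 ± 1.1, adjusted p = 0.00548, lost without either PND 17 mouse at 0.0563 and 0.0591). At PND 28 it stood at least 1280-fold above the floor of PND 7. Its log2 fold change in PND 21/28 was 1.73 ± 0.73 (adjusted p = 0.188), with no overlap between the mice.

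Dnahc7a and Dnahc7c have short exon models of 612 bases and 52 and 72 counts in all. Of the 50 base words in their transcripts, 70.5% and 68.7% also occur in other genes of the Dnahc7 group, so reads of these copies could have been dropped or shared and their values are uncertain. Both had 0 counts at PND 7, and at PND 28 they stood at least 9.17-fold and 19.9-fold above the floor. The PND 7/14 call of Dnahc7c rested on 4 and 6 counts at PND 14 and was lost in 7 of the 10 fits that left out a mouse. For Dnahc7b the shared words were 1.47%.

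The intermediate and light chains of the axoneme started at different ages. Dnali1, an inner arm light chain, had no count at PND 7 and was at 7.53 and 7.83 RPKM at PND 14, 12.6 and 8.07 at PND 17, 45.2 and 25.4 at PND 21 and 51.3 and 47.8 at PND 28. It stood at least 83.6-fold above the PND 7 floor at PND 14 and rose again in PND 17/21 (log2 1.85 ± 0.30, adjusted p = 0.00582, lost without PND 17 mouse 2 at 0.0721). Dnaic1, an outer arm intermediate chain, was at 0.185 and 1.76 RPKM at PND 7, 8.03 and 11.02 at PND 14 and 43.3 and 30.0 at PND 28. Its PND 7/14 change was log2 3.25 ± 0.65 (adjusted p = 0.00549), a call kept in all fits that left out a mouse, at 2.34 without PND 7 mouse 1 and 5.51 without PND 7 mouse 2. The higher PND 7 value belongs to the mouse with 190 RPKM of epididymal markers, whose part was not tested. The multiciliated markers summed to 0.065 RPKM in that mouse and 1.14 in the other.

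Dnaic2, the other outer arm intermediate chain, stayed low while Dnaic1 rose. It had 0.280 and 0.275 RPKM at PND 7, 0.56 and 0.18 at PND 14, 1.25 and 0.74 at PND 17, 11.2 and 10.3 at PND 21 and 23.2 and 14.6 at PND 28. Its change was 0.29 ± 0.52 in PND 7/14 (adjusted p = 0.717) and 3.48 ± 0.40 in PND 17/21 (11.2-fold, adjusted p = 0.0018). This was the member call of PND 17/21 that every fit without a mouse kept.

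Dnalc4, an outer arm light chain of the LC8 type, was at 3.40 and 6.02 RPKM at PND 7 and 39.1 and 26.1 at PND 28 (log2 3.1 ± 0.41, adjusted p = 8.08e-05), but in no step between neighbouring ages was it called. Dnalc1, the outer arm light chain that binds a heavy chain, was between 1.92 and 7.64 RPKM in all mice. Its PND 7/28 change of 0.96 ± 0.39 (adjusted p = 0.0486) fell short of 2-fold, and 5.5% of its exon bases lie opposite Pnma1.

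The cytoplasmic chains were present at every age, each at 1 RPKM or more in both mice. Over the whole span 3 of the 7 were higher and 1 was lower, beside 32.2% higher and 23.4% lower among all genes. Dync1h1, on chr12:111839662-111905155 of mm9, was at 32.0 and 33.9 RPKM at PND 7, 37.5 and 25.0 at PND 14, 26.4 and 31.3 at PND 17, 78.4 and 30.4 at PND 21 and 26.2 and 41.4 at PND 28. Only PND 21 mouse 1 stood apart, and its PND 7/28 change was 0.37 ± 0.37 (adjusted p = 0.405). Dync2h1 was at 8.62 and 7.89 RPKM at PND 7, 19.9 and 23.8 at PND 14 and 22.1 and 32.2 at PND 28. It rose 2.49-fold in PND 7/14 (log2 1.32 ± 0.28, adjusted p = 0.0081), a call lost without PND 7 mouse 2 (log2 1.25, adjusted p = 0.0576). Dync2li1, the light intermediate chain of dynein 2, rose 2.50-fold in PND 7/14 (1.32 ± 0.35, adjusted p = 0.0232). Its PND 7 mice were at 6.62 and 15.3 RPKM, and the call was lost without PND 7 mouse 1 (0.86) or PND 14 mouse 2 (1.00).

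The paralogous subunits of cytoplasmic dynein 1 moved apart. Dync1i2, an intermediate chain found in most tissues, was at 9.98 and 8.20 RPKM at PND 7, 20.4 and 27.0 at PND 14 and 33.2 and 31.8 at PND 28. It rose 2.46-fold in PND 7/14 (log2 1.30 ± 0.24, adjusted p = 0.00338) and 4.5-fold over the whole span. Without PND 14 mouse 2 the first change was just under 2-fold (log2 1.00, adjusted p = 0.0233). Dync1i1, the intermediate chain known for its neuronal isoforms, was at 12.6 and 10.2 RPKM at PND 7, between 16.5 and 17.6 at PND 14 and PND 17, 7.91 and 11.3 at PND 21 and 7.70 and 7.98 at PND 28. It was called in no comparison. The ratio of Dync1i2 to Dync1i1 within a mouse went from 0.793 and 0.8 at PND 7 to 4.31 and 3.98 at PND 28.

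The light intermediate chains showed the same spread. Dync1li1 was at 12.1 and 15.8 RPKM at PND 7 and 3.69 and 4.91 at PND 28, a fall of 1.38 ± 0.33 on the log2 scale (adjusted p = 0.00405) and the lone lower call of PND 7/28. With library totals Dynlrb1 and Dynlt3 were also called lower, and with limma and the criteria of the study these were called and Dync1li1 was not. Over the same span the summed RPKM of the Sertoli markers went from 360 and 269 to 107 and 117, of the spermatogonial markers from 257 and 223 to 61.0 and 70.9 and of the myoid markers from 182 and 239 to 54.0 and 67.2, with no marker of these lists at 0 throughout. Their part in the lower values of Dync1li1, Dynlrb1 and Dynlt3 was not tested. Dync1li2 was at 27.0 and 28.8 RPKM at PND 7 and 43.2 and 43.0 at PND 28 (log2 0.94 ± 0.21, adjusted p = 0.00239, under 2-fold). Their ratio (Dync1li2 to Dync1li1) went from 2.23 and 1.83 at PND 7 to 11.7 and 8.76 at PND 28.

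**Figure D5:**
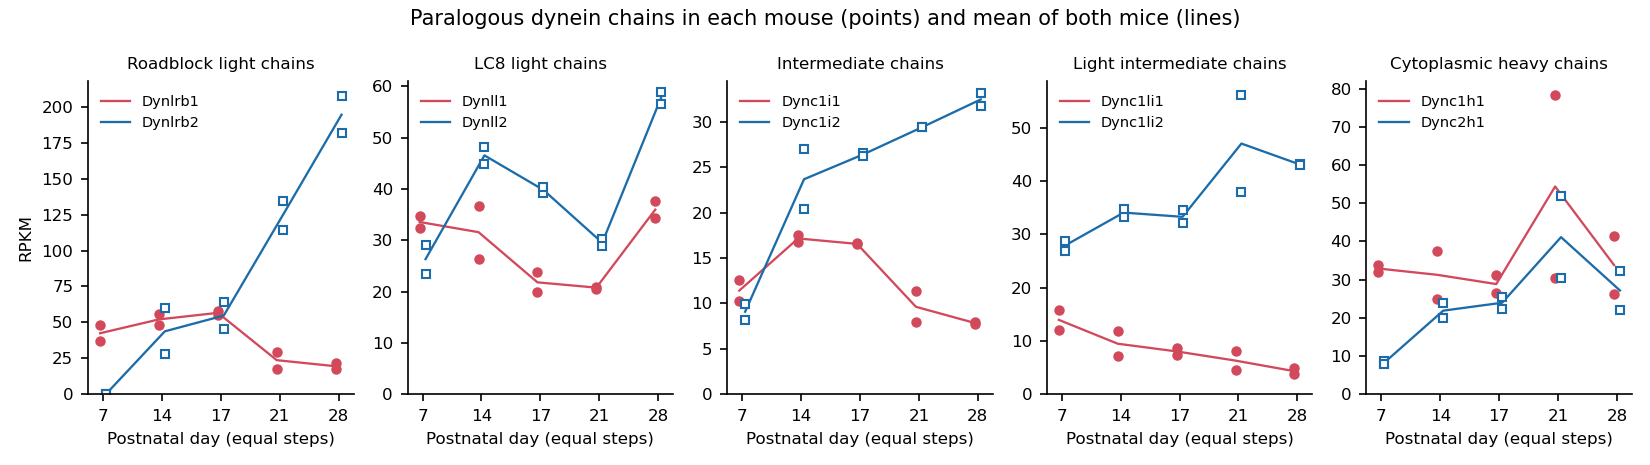
RPKM of 5 pairs of dynein chains against age, with a point for each mouse (filled circles and open squares for the genes of a pair) and lines through the mean of both mice. Dynlrb2 goes from 0 at PND 7 to 207 and 182 RPKM at PND 28 while Dynlrb1 ends at 21.4 and 17.4, and Dync1i2 and Dync1li2 end above their paralogues.

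The roadblock light chains, which are subunits of several dyneins, crossed over. Dynlrb2, on chr8:119028915-119039796 of mm9, had no count at PND 7 and was at 27.7 and 59.8 RPKM at PND 14, 64.3 and 45.1 at PND 17, 135 and 114 at PND 21 and 207 and 182 at PND 28. Its paralogue Dynlrb1 was at 47.8 and 36.9 RPKM at PND 7, 48.3 and 55.8 at PND 14, 55.4 and 57.8 at PND 17, 17.8 and 29.5 at PND 21 and 21.4 and 17.4 at PND 28. The ratio of Dynlrb2 to Dynlrb1 was 0 in both PND 7 mice, between 0.573 and 1.16 at PND 14 and PND 17, 7.59 and 3.87 at PND 21 and 9.70 and 10.4 at PND 28.

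Dynlrb2 stood at least 112-fold above the PND 7 floor at PND 14 (adjusted p = 4.91e-05) and 67.1-fold in the lower of the PND 14 mice. In PND 17/21 it was 2.44-fold higher (log2 1.29 ± 0.36, adjusted p = 0.0483) and Dynlrb1 was lower (-1.11 ± 0.31, adjusted p = 0.0447). Both were near the threshold. Without any 1 of the PND 17, PND 21 or PND 28 mice the call of Dynlrb2 was lost (log2 1.08 to 1.56). That of Dynlrb1 was lost without any of these except PND 21 mouse 2, and its change ranged from -1.15 to -0.72 where it was lost. Over the whole span, the change of Dynlrb1 was -0.79 ± 0.31 (adjusted p = 0.0458), under 2-fold.

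Dynll1 and Dynll2, the LC8 light chains, which also bind many proteins other than dynein, were lower at PND 21 than at PND 28. Dynll1 was at 34.8 and 32.3 RPKM at PND 7, 21.0 and 20.6 at PND 21 and 37.6 and 34.4 at PND 28. Dynll2 was at 29.2 and 23.5 RPKM at PND 7, 48.2 and 44.9 at PND 14, 30.2 and 28.8 at PND 21 and 56.7 and 59.0 at PND 28. The PND 21/28 changes were 1.02 ± 0.22 for Dynll1 (adjusted p = 0.0147) and 1.19 ± 0.20 for Dynll2 (adjusted p = 0.0048). Over the whole span Dynll2 rose (1.45 ± 0.20, adjusted p = 0.000121), and Dynll1 gave 0.43 ± 0.21 (adjusted p = 0.0979).

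Of the Tctex-type light chains, Dynlt3 was at 26.4 and 27.6 RPKM at PND 7 and 14.8 and 9.73 at PND 28 (log2 -0.81 ± 0.25, adjusted p = 0.0149, under 2-fold). The Dynlt1 copies could not be measured apart. Of the 50 base words of Dynlt1a and Dynlt1b 83.0% and 78.9% occur in other copies, and of those of Dynlt1e and Dynlt1f 100%. Reads were found on Dynlt1a (0 to 12.4 RPKM) and Dynlt1b (0.67 to 14.7 RPKM), which were higher at PND 28 than at PND 7 (5.23 ± 0.84 and 3.40 ± 0.64). The processed copy Dynlt1-ps1, annotated as a pseudogene and so not a member, held more, from 20.8 RPKM in a PND 7 mouse to 207 in a PND 28 mouse.

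Other dynein subunits, not all of them axonemal, and other genes of the axoneme moved along with the axonemal dynein chains. In PND 7/28, where 32.2% of all genes were higher and 23.4% lower, 7 of 7 dynein subunits named without these prefixes were higher, 5 of 5 genes of outer arm docking, 10 of 11 dynein arm assembly factors found and 13 of 13 tested genes of the radial spokes and the nexin-dynein regulatory complex, with none lower in any of these lists. Their median log2 fold changes were 3.55, 7.84, 3.21 and 5.94, beside 0.10 for all genes. Among them Txndc3, an outer arm component of the thioredoxin type, was at 0 at PND 7 and at 115 and 122 RPKM at PND 28. Lrrc50, an assembly factor, went from 1.83 and 1.69 RPKM at PND 7 to 315 and 225 at PND 28, and Rsph1, a radial spoke head protein, from 1.42 and 3.31 to 161 and 158. Wdr63, an inner arm intermediate chain, and the docking factor Armc4 were at 0 at PND 7 and at 24.2 and 30.8 and at 34.5 and 30.8 RPKM at PND 28. The PND 7/28 log2 fold changes of the others with the highest levels were 3.05 for Tctex1d2, 7.22 for Ccdc151, 8.37 for Ccdc63, 11.19 for Zmynd10, 3.14 for Ruvbl2, 5.07 for Ccdc39 and 9.47 for Ccdc65, all called.

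Of the 36 tested genes of these 4 lists, 26 were higher in PND 7/14 (13.5% of all genes), 17 in PND 17/21 (9.29%) and 4 in PND 21/28 (7.37%), and in PND 14/17 none was called, as for all genes. No gene of these lists was lower in any comparison. The 4 of PND 21/28 were Txndc3, Ccdc63, Iqca and Tctex1d1, the last 2 named here after their values were seen. Ccdc63 was at 1.65 and 0.49 RPKM at PND 14, 0.44 and 0.79 at PND 17, 11.3 and 6.17 at PND 21 and 45.2 and 45.7 at PND 28. Tctex1d1, a light chain of the Tctex type, was at 1.44 and 0.06 RPKM at PND 14, 0.12 and 0.10 at PND 17, 0.60 and 0.83 at PND 21 and 24.4 and 33.3 at PND 28. Both genes were among the 26 called in PND 7/14. Their higher PND 14 values came from mouse 1, which had 483 RPKM of spermatid markers, whose part was not tested.

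The partners of cytoplasmic dynein were mixed. Of 13 dynactin genes, whose complex links dynein 1 to cargo, 8 were higher in PND 7/28 and none lower, with a median of 1.39, beside 32.2% higher and 23.4% lower among all genes. The most abundant, Dctn2, went from 33.5 and 45.1 RPKM at PND 7 to 262 and 198 at PND 28 (log2 2.87), followed by Actr1a (2.38) and Actr10 (3.15), both called. Of 13 regulators and adaptors, 2 were higher, Hook1 (2.62) and Hook2 (3.54), 3 were lower, Nde1 (-1.49), Hook3 (-1.23) and Bicd1 (-1.33), and the median was -0.21. These 3 of 13 are close to the 23.4% lower among all genes. Pafah1b1 (Lis1), a regulator of dynein 1, lay between 27.1 and 34.2 RPKM in all 10 mice, and Ndel1, a relative of Nde1, was not called (0.29, adjusted p = 0.328). Hook2, Nde1, Hook3 and Bicd1 are named here because they make up these counts, after their values were seen.

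RFX factors and FOXJ1 are known to switch on genes of motile cilia. Rfx2 was at 1.55 and 0.25 RPKM at PND 7, 13.1 and 10.95 at PND 14, 12.8 and 10.0 at PND 17, 50.4 and 22.9 at PND 21 and 42.0 and 33.2 at PND 28, with calls in PND 7/14 (log2 3.53, adjusted p = 0.00139) and PND 17/21 (1.76, adjusted p = 0.0393). Rfx4 was at 0 at PND 7, 4.17 and 6.98 RPKM at PND 14 and 16.8 and 11.8 at PND 28. Foxj1 was at or below 0.99 RPKM until PND 17 and at 8.85 and 9.24 at PND 21 and 34.1 and 23.5 at PND 28. All 5 tested genes of the list were higher in PND 7/28, beside 32.2% of all genes. The smallest rises were those of Rfx1 (log2 1.56) and Rfx3 (1.26), named here after their values were seen. In PND 7/14 neither was called (-0.65 and -0.32). Whether any gene of the list acts on the dynein genes was not tested.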

How the data were processed

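RNA of whole testis from 10 mice was depleted of ribosomal RNA and sequenced on a SOLiD 4 instrument by the authors, with each PND 7 mouse spread over 2 barcodes. With LifeScope and mm9, the authors counted uniquely placed reads on Ensembl exons and deposited a count and an RPKM value for each gene. Whether counting used strand is not given in the sources used here. PND 7 counts were summed over barcodes and RPKM values averaged. Counts of all genes were fitted over all 10 mice with edgeR 4.0.16 in R 4.3.3 (TMM scaling, filterByExpr, quasi-likelihood test, Benjamini-Hochberg adjustment over 16860 genes). DE genes had an adjusted p under 0.05 and at least a 2-fold change. Fold changes are later over earlier age, and errors are SE. The procedure was tested on simulated data. Levels between genes were compared as RPKM only. Alternatives used DESeq2 1.42.0, limma 3.58.1 on log2(RPKM + 1 or 0.1), other scalings and filters, a replicate block and each mouse left out. Further alternatives took the PND 7 barcodes as separate samples or dropped the 2-fold minimum. Every member was described, and pathway genes were named as the 3 with the highest mean RPKM of each list, besides those said to be named after their values were seen. The members and lists were chosen with earlier results of these data known. Labels do not say more of how the mice of an age were related, so p-values measure the spread between these mice. Mouse numbers were not treated as pairs. Protein sequences were not analysed here, and no promoter was matched for Dnahc3, Dync1li2, Dync2li1, Dynll2, Dynlt1a, Dynlt1b and Dynlt1e.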

Additional observations from a re-analysis of the deposited data

How the results depend on the processing

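No called value of a member changed sign under any alternative run. Among the alternative values for the 58 calls of single members, 1199 kept the call and 129 lost it. These include a setting without the 2-fold minimum, which could not lose a call, and fits that left out mice of ages outside the comparison. They also include a fit that took the PND 7 barcodes of a mouse as separate samples. The kept share therefore overstates how stable the calls are. The number of members called fell from 17 to 5 in PND 7/14, from 13 to 8 (RPKM + 1) or 7 (RPKM + 0.1) in PND 17/21 and from 2 to 0 in PND 21/28 with limma and the criteria of the study, which ask for a difference of 10 RPKM. The share of all genes called fell as well, from 18.9% to 3.65% or 3.59% in PND 7/14. It fell from 10.3% to 2.88% or 2.14% in PND 17/21 and from 7.66% to 3.15% or 1.95% in PND 21/28. These shares are of 26788 genes for limma and of 16860 for edgeR. In PND 7/28 limma gave 19 member calls in place of 26 (9 lost, 2 gained), beside 14.3% or 14.2% of all genes in place of 55.6%. Of the 15 axonemal heavy chains it then called 1 in place of 11 in PND 7/14 and 8 in place of 14 in PND 7/28. Scaling by library totals left 0 calls in PND 21/28, where 5.55% of all genes were called. With mitochondrial genes and small structural RNAs dropped, 1 was left, as it was on removing the length trend of each library, which was added after the values were seen. Without a filter on low counts, 3 members were called in PND 14/17, beside 1.33% of all genes. Leaving out each mouse in turn gave 13 to 17 calls in PND 7/14, 0 to 1 in PND 14/17, 1 to 16 in PND 17/21, 0 to 4 in PND 21/28 and 25 to 27 in PND 7/28. A lone mouse was then assumed to vary like the other ages. The cause of these shifts was not tested. Library totals moved the median of all genes by -0.22 in PND 21/28 and -0.32 in PND 7/28, and DESeq2 size factors by 0.16 in PND 7/28, so members near the threshold depend on scaling. The mouse number is only a number: of 10 pairs of ages, 2 had a correlation of deviations over 0.1 (range -0.17 to 0.343). With the number as a replicate block, PND 17/21 had 11 calls (Dynlrb1 and Dynlrb2 were lost), the change over all ages 30, and the other counts were 17, 0, 2 and 26.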
